A study of Mus musculus with 4 samples.

Results

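The genes described here encode the insulin-like growth factors (IGFs), their signalling receptor and their binding proteins: Igf1, Igf2, Igf1r, Igfbp2, Igfbp3, Igfbp4, Igfbp5, Igfbp6 and Igfbp7. These 9 genes were taken by symbol from the 22913 genes of the deposited table. The rule uses no measured value, but the genes were chosen with earlier results of these data known. RNA sequencing covered dermal white adipose tissue (dWAT), the sheet of fat beneath the dermis that surrounds the base of the hair follicle (HF), from C57BL/6 mice with no genetic change named. There were 4 libraries and 4 groups: OTD (old mice of 18 months, telogen, the resting phase of the HF), YTD (young mice of 2 months, telogen), OAD (old mice of 18 months, anagen, the growth phase, induced by depilation) and YAD (young mice of 2 months, depilation-induced anagen). The dWAT of 20 mice per group was harvested by microdissection, and whether each library pooled all of them was not stated. A separate age label gives 18 months for YTD and 2 months for OAD, against their titles, descriptions and protocol. The titles set the groups here, and if the age label were right, both telogen libraries would be old and both anagen libraries young.

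Igf1 and Igf2 are secreted growth factors that act through the receptor tyrosine kinase encoded by Igf1r, which signals through insulin receptor substrates, PI3 kinase and Akt. The IGF binding proteins hold the ligands outside cells, lengthen their life in the circulation and set how much ligand reaches the receptor, and several also act without a ligand. Fat is a known source of Igf1, Igf1 made by dermal cells is known to act on the HF, and the binding proteins differ in affinity, with Igfbp6 known to prefer Igf2 and Igfbp7 to bind IGFs weakly.

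The binding proteins share a cysteine-rich amino-terminal domain. A short stretch of its coding sequence is shown, which 5 of the binding protein genes hold and the ligand and receptor genes do not. Searching each coding sequence in frame for a cysteine codon, a glycine codon, a pair of cysteine codons, any pair of codons and a cysteine codon found 1 match in each of 5 binding protein genes. Each match lies in exon 1 of its gene (GENCODE M21, GRCm38) and is written 5′ to 3′ on the strand of the gene, with the cysteine codons in capitals.
Igfbp2 (chr1:72824781-72824801, plus strand, starting at codon 68): TGCggcTGCTGCtccgtgTGC
Igfbp3 (chr11:7213566-7213586, minus strand, starting at codon 69): TGCggcTGCTGCctgactTGC
Igfbp4 (chr11:99041653-99041673, plus strand, starting at codon 53): TGCggtTGTTGCgccactTGC
Igfbp5 (chr1:72873966-72873986, minus strand, starting at codon 52): TGTggcTGCTGCatgactTGC
Igfbp7 (chr5:77407826-77407846, minus strand, starting at codon 57): TGCgggTGCTGCccggtgTGT
The search found 0 matches in Igfbp6, Igf1, Igf2 and Igf1r. Genes other than the members were not searched. Igfbp6, whose amino-terminal domain is known to lack a pair of the cysteines held by other family members, had the fewest cysteine codons of the binding protein genes, 16, against 18 to 20 in the others.

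Igfbp2 and Igfbp5 are neighbours on chromosome 1, at 72824503 to 72852474 on the plus strand and 72857932 to 72874884 on the minus strand, so their 3′ ends face each other across 5457 bases. Their promoters are shown because these neighbours differed in opposite directions between HF phases, as described below. Both sequences come from RefSeq (GRCm38.p6) and end at the base before an annotated start, and capitals mark each GGGCGG, the GC box motif, on either strand.
Igfbp2 (chr1:72824230-72824479, plus strand): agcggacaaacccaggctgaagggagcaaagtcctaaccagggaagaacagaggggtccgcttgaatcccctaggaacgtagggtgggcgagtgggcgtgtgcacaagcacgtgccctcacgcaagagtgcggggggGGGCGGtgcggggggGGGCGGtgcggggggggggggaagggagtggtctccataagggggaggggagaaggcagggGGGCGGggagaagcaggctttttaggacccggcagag
Igfbp5 (chr1:72874885-72875115, minus strand): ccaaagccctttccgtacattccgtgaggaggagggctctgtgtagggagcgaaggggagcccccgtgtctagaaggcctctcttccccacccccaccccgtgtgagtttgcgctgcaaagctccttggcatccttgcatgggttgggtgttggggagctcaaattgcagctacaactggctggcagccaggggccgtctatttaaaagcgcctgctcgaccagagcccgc
The Igfbp2 window held 3 copies of GGGCGG and the Igfbp5 window held none, and neither held TATAAA or CCAAT on either strand. RefSeq lists another start of Igfbp2, and the window before it (chr1:72825137-72825321) held none of these motifs. Among 32817 RefSeq promoters, windows of 250 bases before the start held GGGCGG in 32.7%, CCAAT in 33.8% and TATAAA in 12.4%, and no copy of one motif overlapped another in the windows shown. Of the other binding protein genes, Igfbp4 and Igfbp6 held TATAAA, Igfbp6 also held CCAAT, Igfbp7 held GGGCGG, and Igfbp3 held none of these motifs.

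Values are FPKM, mapped fragments per kilobase of transcript scaled to the sequencing depth, a level per length that allows genes to be compared within a library. Differences between libraries are differences of log2(FPKM + 1), which understate the change of low genes, and a difference of at least 1 in size was counted as past the threshold. With 1 library in each group there is no replicate check, no test was possible, and the 95% intervals given for ratios cover counting error only. The depth of the libraries, estimated from the commonest low value of FPKM times transcript length, was 15300000 to 20700000 fragments. All 9 members passed the filter of a mean FPKM of at least 1 over the 4 libraries, which 13143 genes passed.

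The libraries of the 2 phases stood apart in their makeup. Mitochondrially encoded genes took 44.7% to 52.7% of the summed FPKM in telogen and 14.4% to 18.3% in anagen, and 38 skeletal muscle genes took 7.14% to 11.3% and 2.31% to 2.54%. All 8 adipocyte markers, Adipoq and Plin1 among them, were above 0 in every library, with summed levels of 6080 to 7450 FPKM in telogen and 1790 to 2590 FPKM in anagen, beside 8820 to 75100 FPKM over 8 skeletal muscle markers. The summed level of 8 hair shaft and matrix markers was 193 to 340 FPKM in telogen and 10200 to 12600 FPKM in anagen, so the anagen libraries labelled dWAT held high levels of HF markers.

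**Figure D1:**
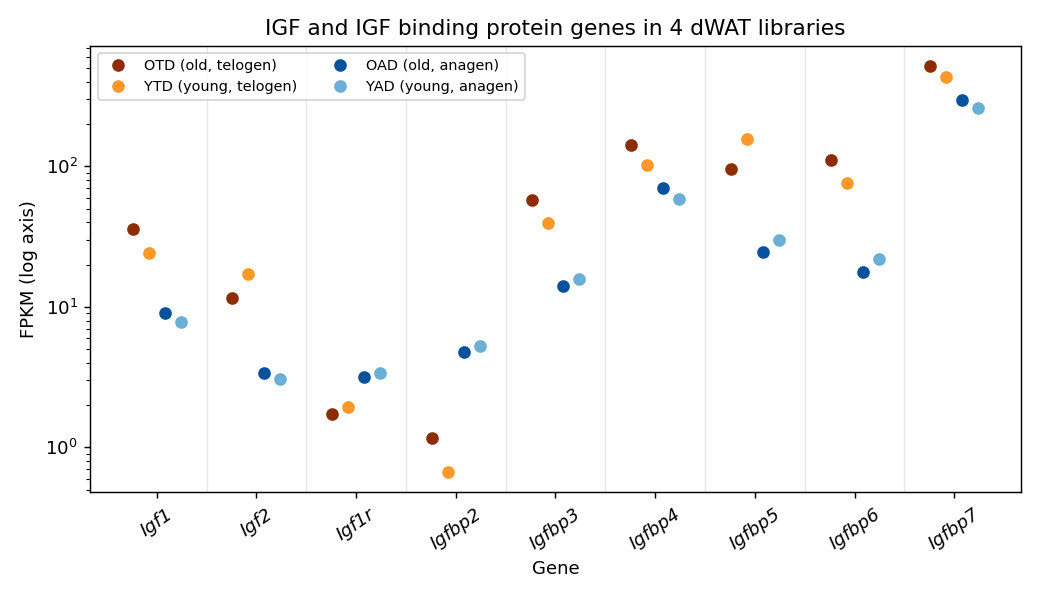
FPKM (vertical log axis) of each IGF and IGF binding protein gene (horizontal axis) in the 4 libraries, 1 point per library, with brown and orange for telogen and dark and light blue for anagen. Igfbp7 lay highest in each library, from 262 to 517 FPKM, and only Igf1r and Igfbp2 had both anagen points above both telogen points.

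Of the ligands, Igf1 was the higher in every library. Igf1 stood at 36.1 FPKM in OTD and 24.2 in YTD, against 9.0 in OAD and 7.83 in YAD. Both telogen libraries were above both anagen libraries, and within each phase the old library was the higher, in anagen by less than counting error. Igf2, an imprinted gene expressed mainly in the fetus, stood at 17.1 FPKM in YTD, 11.5 in OTD, 3.38 in OAD and 3.08 in YAD. Its telogen libraries were also above its anagen libraries, but here the young telogen library was the highest, and the anagen libraries were apart by less than counting error. The level of Igf1 over that of Igf2, which does not depend on the scaling between libraries, was 3.14 in OTD and 1.41 in YTD, against 2.66 in OAD and 2.54 in YAD, lowest in YTD. The counting of strands was not stated, so reads of Igf1 cannot be told apart from those of its antisense partner Igf1os, nor those of Igf2 from Igf2os and the same-strand Gm49394 and Mir483, which it overlaps.

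The receptor gene Igf1r went the other way at low levels. Igf1r stood at 1.73 FPKM in OTD and 1.94 in YTD, against 3.19 in OAD and 3.39 in YAD. Both anagen libraries were above both telogen libraries, and the libraries of 1 phase differed by less than counting error. The insulin receptor gene Insr, whose product can pair with that of Igf1r, stood at 9.12 FPKM in OTD and 10.3 in YTD, against 4.49 in OAD and 3.83 in YAD, so the level of Igf1r over that of Insr was 0.190, 0.189, 0.710 and 0.886 in these libraries. Igf2r, whose product takes up and clears Igf2, stood between 8.62 and 10.8 FPKM over the 4 libraries.

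The binding protein genes spanned from under 1 to over 500 FPKM. Igfbp7, which encodes a secreted protein known from vessels and matrix, stood at 517 FPKM in OTD and 435 in YTD, against 298 in OAD and 262 in YAD, above 97.6% to 98.5% of the filtered genes. Igfbp4, which encodes an inhibitor of IGF action that the protease Pappa cleaves, stood at 141 FPKM in OTD and 103 in YTD, against 70.6 in OAD and 58.2 in YAD. Both genes had the same order of libraries as Igf1, with telogen above anagen and old above young in each phase. Igfbp7 overlaps the convergent Polr2b and the opposite-strand Gm34648, so a part of its reads may be theirs.

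Igfbp5 and Igfbp6 had the widest ranges on the log2(FPKM + 1) scale, 2.63 and 2.57, while as a fold the low Igfbp2 ranged most (7.91-fold). Igfbp5, whose product binds extracellular matrix, stood at 156 FPKM in YTD, 95.7 in OTD, 30.0 in YAD and 24.4 in OAD. The young library was the higher in each phase, and the highest value was 6.39 times the lowest. Igfbp6, which encodes the binding protein that prefers Igf2, stood at 111 FPKM in OTD, 75.7 in YTD, 22.1 in YAD and 17.7 in OAD. OTD was the highest and OAD the lowest, 6.23-fold apart, so the old libraries held both ends of the range. Igfbp3, whose product carries most circulating IGF, had the same order at 57.5 FPKM in OTD, 39.6 in YTD, 15.7 in YAD and 14.2 in OAD, with the anagen libraries apart by less than counting error.

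Igfbp2, a binding protein gene known as a target of leptin, was the lowest of the binding protein members and, as FPKM, the only one higher in anagen (under TPM, Igfbp4 and Igfbp7 were also higher there in the young). Igfbp2 stood at 1.16 FPKM in OTD and 0.667 in YTD, against 4.76 in OAD and 5.27 in YAD. These values rest on at least 18, 9, 88 and 100 fragments, above the 0.213 FPKM to which 3 fragments would come in YTD. The libraries of 1 phase again differed by less than counting error. Igfbp1, the binding protein made mainly by liver, was listed at 0 in all 4 libraries, where 3 fragments are the limit that a count of 0 allows.

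The comparison of old with young telogen dWAT addresses how the resting tissue differs with age. In OTD against YTD, 0 of 9 members passed the threshold, beside 4.19% of the 13143 filtered genes. Igf1 (difference 0.56), Igfbp6 (0.54), Igfbp3 (0.53), Igfbp4 (0.44), Igfbp2 (0.38) and Igfbp7 (0.25) were higher in OTD. Igfbp5 (-0.70), Igf2 (-0.53) and Igf1r (-0.11) were lower. The median over the members was 0.38, beside -0.07 over all filtered genes. As ratios, Igf1 was 1.49 times as high in OTD (counting interval 1.24 to 1.8) and Igfbp5 was 0.614 times as high (0.572 to 0.659), while the intervals of Igfbp2 (0.744 to 4.41) and Igf1r (0.688 to 1.16) held 1. The sign of Igf1r turned positive, to at most 0.04, under 2 of 5 other scalings that leave mitochondrially encoded genes out, and the other 8 members kept their signs. Those scalings move the median of all genes by 0.18 and the share of past-threshold genes that were higher in OTD from 44.5% to 71.0% with mitochondrially encoded genes left out, and over the 5 scalings that share ran from 43.6% to 72.7%.

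The markers of other cell types moved with this comparison. All 7 endothelial markers were higher in OTD (median 0.78), as were 7 of 8 macrophage markers (median 0.44) and all 6 fat progenitor markers (median 0.56), while all 8 hair shaft and matrix markers (median -0.98, 4 past the threshold) and all 8 skeletal muscle markers (median -0.63) were lower. Over the 8 adipocyte markers the median was 0.29, over the 8 fibroblast markers 0.12 and over the 6 smooth muscle and pericyte markers 0.42. Their part in the member differences was not tested, and in bulk tissue fewer cells of a type and less RNA per cell cannot be told apart.

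The same age comparison in anagen gave smaller differences. In OAD against YAD, 0 of 9 members passed the threshold, beside 1.22% of genes. Igfbp4 (0.28, ratio 1.21, counting interval 1.11 to 1.33), Igfbp7 (0.18), Igf1 (0.18) and Igf2 (0.10) were higher in OAD. Igfbp6 (-0.30, ratio 0.803, interval 0.679 to 0.948), Igfbp5 (-0.29, ratio 0.813, interval 0.712 to 0.929), Igfbp3 (-0.13), Igfbp2 (-0.12) and Igf1r (-0.07) were lower. The member median was -0.07, beside 0.00 over all genes, and the counting intervals of Igf1, Igf2, Igf1r, Igfbp2 and Igfbp3 held 1. After rescaling to TPM, which sets every library to the same sum and moves the median of all genes by -0.21 and the share of calls higher in OAD from 64.6% to 36.6%, Igf1 (-0.03) and Igfbp7 (-0.05) turned negative, and Igf2 turned negative under 3 of 5 scalings. Beside these values, all 8 adipocyte markers (median 0.30) and all 7 endothelial markers (median 0.37) were higher in OAD, as were 6 of 8 skeletal muscle markers (median 0.41). All 5 melanocyte (median -0.80, 1 past the threshold), all 8 fibroblast (median -0.66, 3 past the threshold) and all 8 macrophage markers (median -0.24) were lower, and the part of these cell types was not tested.

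**Figure D2:**
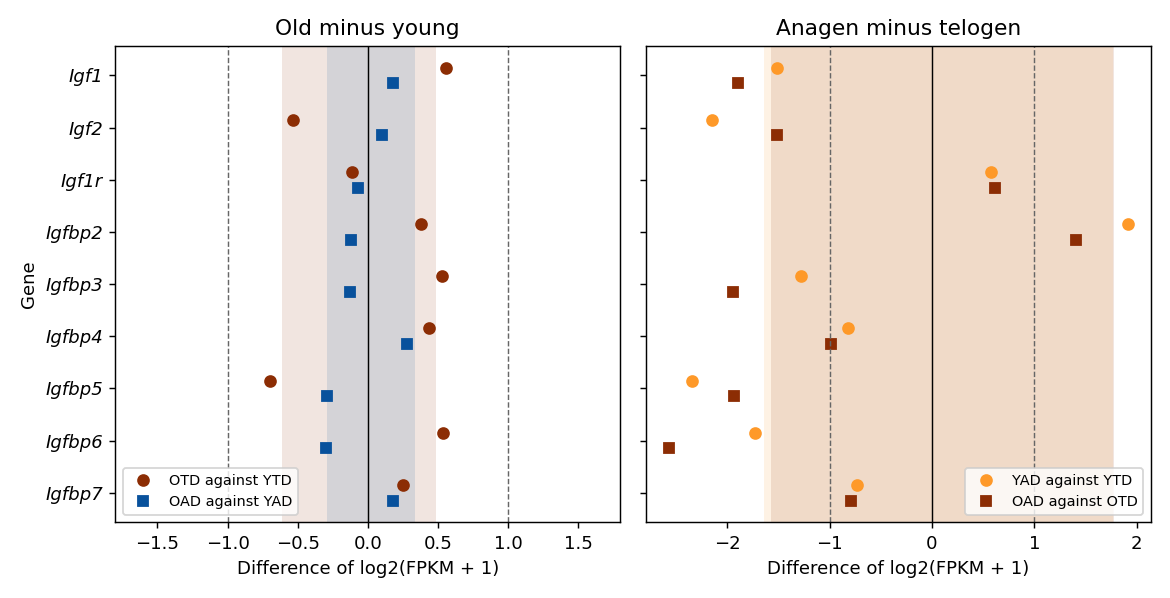
Difference of log2(FPKM + 1) (horizontal axes) for each member (vertical axis), old minus young in the left panel and anagen minus telogen in the right panel. Points are single differences between 2 libraries, shaded bands run from the 10th to the 90th percentile of the 13143 filtered genes in each comparison, and dashed lines mark differences of 1 in size: 0 members passed them by age, and 6 passed them by phase in each age.

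The comparison of anagen with telogen addresses how the tissue differs between HF phases. Anagen was induced by depilation at both ages and no depilation is named for telogen, so phase and depilation cannot be told apart. This comparison shares its libraries with the age comparisons, so its values are not independent of them. In YAD against YTD, 6 of 9 members passed the threshold, beside 41.8% of genes. Igfbp2 was higher (1.91), as were 20.2% of genes past the threshold in that direction. Igfbp5 (-2.34), Igf2 (-2.15), Igfbp6 (-1.73), Igf1 (-1.51) and Igfbp3 (-1.28) were lower, 5 of 9 members, beside 21.5% of genes. Igfbp4 (-0.82), Igfbp7 (-0.73) and Igf1r (0.58) did not reach 1. The member median was -1.28, against 0.03 over all genes. Igfbp5 was 5.20 times as high in telogen, and its difference was lower than that of all but 3.98% of genes. Igfbp2 was 7.91 times as high in anagen, with a wide counting interval of 4.0 to 17.8.

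In OAD against OTD, 6 of 9 members passed the threshold, beside 40.3% of genes, and they were the genes named for the young mice. Igfbp2 was higher (1.41), beside 20.5% of genes. Igfbp6 (-2.57), Igfbp3 (-1.94), Igfbp5 (-1.93), Igf1 (-1.89) and Igf2 (-1.51) were lower, 5 of 9, beside 19.9% of genes. Igfbp4 (-0.99) lay just inside the threshold, Igfbp7 stood at -0.79 and Igf1r at 0.62, and the member median was -1.51, against 0.06 over all genes. Igfbp6 was 6.23 times as high in OTD as in OAD, and 1.41% of genes had a lower difference. Its level was 3.43 times as high in YTD as in YAD. No test of the difference between the ages was possible.

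How many members passed depended on the scaling, as the plot of phase differences under each scaling shows. Rescaling to TPM moved the median of all genes by 0.72 in the young and 0.53 in the old, and the share of past-threshold genes that were higher in anagen from 48.4% to 81.7% and from 50.8% to 76.4%. Over the 5 scalings that share ran from 45.2% to 81.7% in the young and from 36.4% to 76.4% in the old. Under TPM, 2 members were higher (Igf1r and Igfbp2) and 2 lower (Igf2 and Igfbp5) past the threshold in YAD against YTD. Beside them, 42.0% of genes were higher and 9.41% lower. In OAD against OTD, 2 members were higher and 4 lower under TPM, beside 35.5% and 11.0% of genes. With mitochondrially encoded genes left out, 1 was higher and 6 lower in OAD against OTD, beside 18.8% and 24.3% of genes. Scaling by the median of ratios also gave 1 and 6, beside 20.3% and 20.2%. With mitochondrially encoded and skeletal muscle genes left out, 1 was higher and 7 lower, Igfbp4 (-1.35) and Igfbp7 (-1.15) included, beside 16.2% and 28.4%. Igfbp4 (0.02) and Igfbp7 (0.12) turned positive in the young mice under TPM. The other 7 members in the young, and all 9 in the old, kept their signs under the 5 scalings tried. Relative to the median of all genes, Igfbp5 stood at -2.37 in the young and -1.99 in the old, Igfbp6 at -1.76 and -2.63, and Igfbp2 at 1.88 and 1.36.

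**Figure D3:**
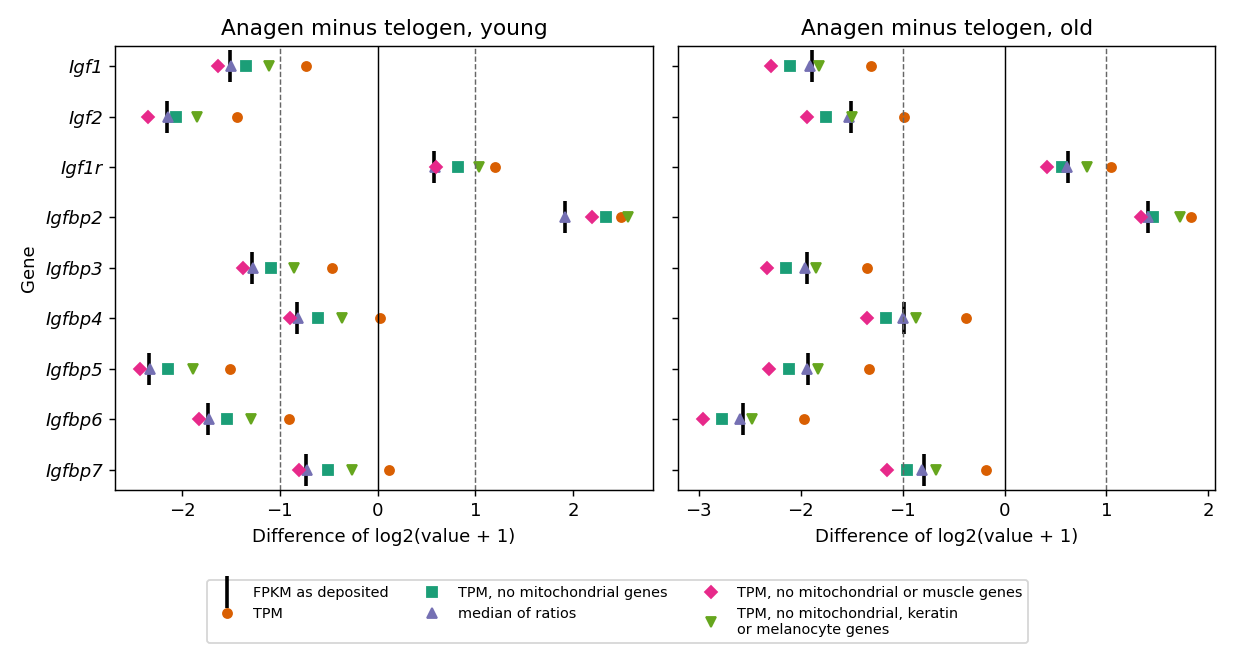
Anagen minus telogen difference of log2(value + 1) (horizontal axes) of each member in young (left panel) and old mice (right panel), with a black bar for FPKM as deposited and symbols for the 5 other scalings. Igf2, Igfbp5 and Igfbp6 stayed below 0 and Igf1r and Igfbp2 above 0 under each scaling, while Igfbp4 and Igfbp7 crossed 0 in the young under TPM.

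The marker genes of several cell types moved with the phase comparisons too. All 8 adipocyte markers were lower in anagen at both ages, with medians of -1.63 in the young and -1.52 in the old. All 8 fibroblast (-1.12 and -2.75), all 8 macrophage (-1.43 and -2.33), all 7 endothelial (-1.69 and -1.96) and all 8 skeletal muscle markers (-2.99 and -1.97) were lower as well, and 5 of 6 fat progenitor markers were lower at each age (-1.33 and -2.05). The summed level of the fibroblast markers was 1530 FPKM in OTD and 1110 in YTD, against 204 in OAD and 414 in YAD, and the macrophage markers summed to 751, 443, 90.6 and 113 FPKM in this order of libraries, so both lists had the order of libraries seen for Igfbp3 and Igfbp6. The adipocyte markers summed to 7450, 6080, 2590 and 1790 FPKM in this order of libraries. The endothelial markers summed to 386, 229, 84.4 and 63.1 FPKM, and the fat progenitor markers to 692, 516, 116 and 107 FPKM. All of these lists had the order seen for Igf1, Igfbp4 and Igfbp7. The skeletal muscle markers summed to 48900 FPKM in OTD and 75100 in YTD, against 11900 in OAD and 8820 in YAD. The smooth muscle and pericyte markers summed to 1620, 1980, 409 and 337 FPKM in these libraries. Both of these sums had the order seen for Igf2. Des alone took most of the smooth muscle and pericyte sum, with 1040, 1670, 257 and 181 FPKM in the same order of libraries. Of the 6 markers, 4 were higher in OTD than in YTD, and only Des and Cspg4 were lower (median over the list 0.42). The match of this list to Igf2 thus rested on Des. The matches between members and lists rest in part on the order of OAD and YAD. That order lay within counting error for Igf1, Igf2 and Igfbp3, and it turned under TPM for Igf1, Igf2 and Igfbp7. The OAD against YAD medians of the fat progenitor (0.05) and smooth muscle and pericyte markers (0.01) each changed sign under 4 of 5 scalings. Of 6 smooth muscle and pericyte markers, 5 were lower in anagen at each age (-0.83 and -1.93). The phase medians of these lists kept their signs under the scalings tried, but were closer to 0 under TPM. They were then -0.33 and -2.14 for the fibroblast, -0.67 and -1.79 for the macrophage and -0.83 and -0.91 for the adipocyte markers. For the endothelial markers they were -0.89 and -1.41, and for the fat progenitor markers -0.66 and -1.47. For the skeletal muscle markers they were -2.15 and -1.35, and for the smooth muscle and pericyte markers -0.03 and -1.32.

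The lists of HF and epidermal cells stood higher in anagen, as Igf1r and Igfbp2 did. All 8 hair shaft and matrix markers (medians of 4.68 in the young and 5.86 in the old), all 5 melanocyte markers (5.16 and 5.08) and all 7 epidermal markers (2.65 and 2.67) were higher in anagen, with summed levels of 56.5 to 82.3 FPKM in telogen and 795 to 1180 FPKM in anagen for the epidermal and of 12.1 to 14.1 and 442 to 726 FPKM for the melanocyte markers. Of 8 dermal papilla markers 6 were higher in the young and 5 in the old, with summed levels of 9.44 to 15.5 FPKM in telogen and 33.9 to 41.2 FPKM in anagen. The epidermal marker Krt1 was listed at 0 in YTD and at most at 0.126 FPKM in the others. The part of these cell types in the member differences was not tested.

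**Figure D4:**
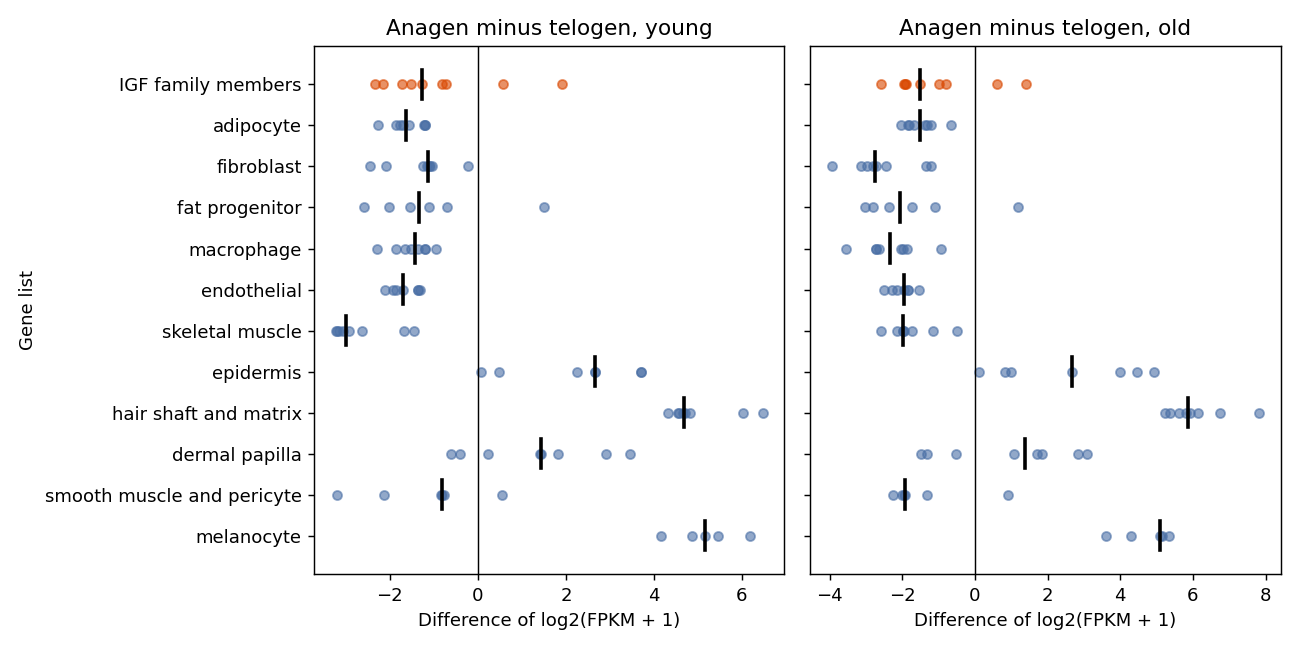
Anagen minus telogen difference of log2(FPKM + 1) (horizontal axes) for the 9 members (orange points, top row) and for the genes of 11 cell type marker lists (blue points, 1 row per list), in young (left panel) and old mice (right panel), with a black bar at the median of each row. The member median was -1.28 in the young and -1.51 in the old, beside medians of -1.69 to -1.12 and -2.75 to -1.52 over the adipocyte, fibroblast, fat progenitor, macrophage and endothelial lists, while hair shaft, melanocyte and epidermal markers lay above 0.

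Shares within a library do not depend on the scaling between libraries. The 6 binding protein genes summed to 923 FPKM in OTD and 810 in YTD, against 430 in OAD and 394 in YAD, and Igfbp7 made up 56.0%, 53.7%, 69.3% and 66.7% of these sums. A share of fragments is another quantity, in which longer genes weigh more by construction. Estimated as FPKM times the longest annotated transcript of each gene, the share of Igfbp7 in fragments was 31.0%, 25.7%, 42.8% and 40.0%. On either measure its share was higher in both anagen libraries than in both telogen libraries. Igfbp4 held 12.7% to 16.4% in all 4 libraries. Igfbp5 held 19.2% in YTD, 10.4% in OTD, 7.62% in YAD and 5.67% in OAD, and Igfbp6 held 12% in OTD, 9.35% in YTD, 5.61% in YAD and 4.13% in OAD, both lower in anagen. The share of Igfbp3 was 6.23% in OTD, 4.89% in YTD, 3.99% in YAD and 3.31% in OAD. Igfbp2 held 0.126% and 0.0823% in OTD and YTD and 1.11% and 1.34% in OAD and YAD. The level of Igfbp2 over that of its neighbour Igfbp5 was 0.0121 in OTD and 0.00428 in YTD, against 0.195 in OAD and 0.176 in YAD. Igf1 and Igf2 together came to 5.16 and 5.10 FPKM per 100 FPKM of binding protein genes in OTD and YTD, and to 2.88 and 2.77 in OAD and YAD. Ligand RNA was thus lower in anagen against this sum, of which Igfbp7 took 53.7% to 69.3%. This does not hold against each binding protein gene. In the old libraries Igf1 (-1.89) and Igf2 (-1.51) had smaller phase differences than Igfbp6 (-2.57), and larger ones than Igfbp4 (-0.99) and Igfbp7 (-0.79).

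**Figure D5:**
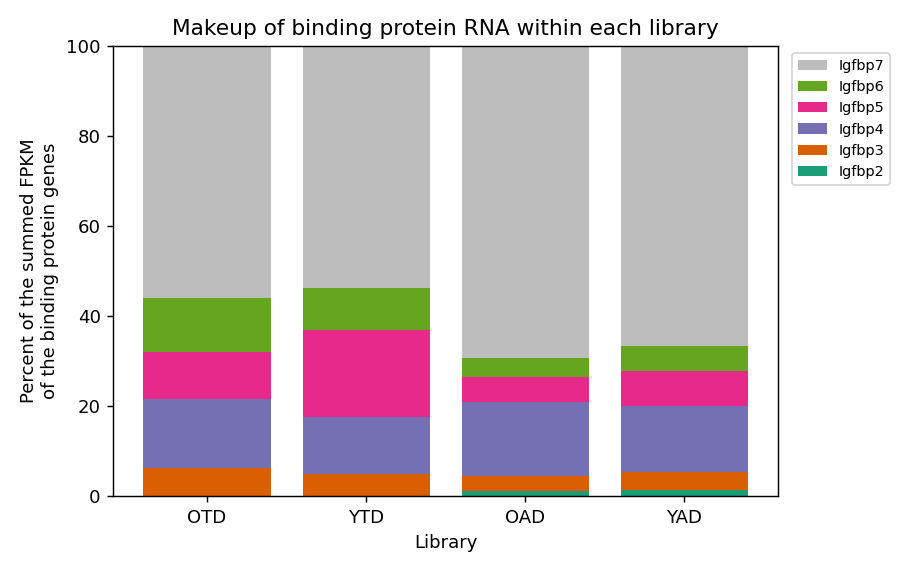
Percent of the summed FPKM of the 6 binding protein genes (vertical axis) taken by each gene in each library (horizontal axis), as stacked bars that reach 100. Igfbp7 took 53.7% to 56.0% in telogen and 66.7% to 69.3% in anagen, and Igfbp5 was largest in YTD at 19.2%.

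Of 28 other genes of the IGF axis, 27 were in the table and 21 passed the filter. By age, 1 of the 21 was past the threshold in telogen and 0 in anagen, beside 4.19% and 1.22% of all filtered genes. By phase 3 were higher and 6 lower in the young, beside 41.8% of genes past it in either direction, and 1 was higher and 4 were lower in the old, beside 40.3%, so the list lay near the background in the young and below it in the old. The medians over the 27 were -0.14 and -0.01 by age in telogen and anagen and -0.16 and -0.18 by phase in the young and the old, beside -1.28 and -1.51 over the members by phase. Under TPM the phase medians of the list turned to 0.20 and 0.24. Ghr, the growth hormone receptor upstream of Igf1, stood at 117 FPKM in OTD and 121 in YTD, against 33.3 in OAD and 25.4 in YAD, with differences of -2.20 in the young and -1.78 in the old between phases. Irs2, an adaptor of the insulin and IGF receptors, was the gene past the threshold by age, at 11.2 FPKM in OTD and 3.32 in YTD, against 5.79 in OAD and 4.16 in YAD, a difference of 1.5 between OTD and YTD.

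Downstream of the receptor, Akt2, the Akt kinase most tied to insulin action in fat and muscle, stood at 182 FPKM in YTD, 109 in OTD, 52.0 in OAD and 45.1 in YAD, with phase differences of -1.99 in the young and -1.05 in the old. Pik3r1, the regulatory subunit of PI3 kinase, had phase differences of -1.5 and -1.14, and Grb10, an adaptor that restrains both receptors, of -1.53 and -1.39. Insr (-1.22) and Igfals (-1.06), the gene of the acid-labile subunit that joins Igfbp3 in blood, were past the threshold in the young, against -0.88 and -0.79 in the old. Under TPM, Pik3r1 (-0.70 and -0.56), Grb10 (-0.78 and -0.86), Insr (-0.50 in the young) and Igfals (-0.34) no longer reached 1, while Ghr did (-1.37 and -1.18) and Akt2 did in the young (-1.16). Foxo3, a transcription factor that Akt holds out of the nucleus, was higher in anagen, at 35.2 FPKM in OAD and 29.9 in YAD against 7.24 in OTD and 7.62 in YTD. Among the genes of binding protein cleavage, the protease gene Pappa2 stood at 2.60 FPKM in YAD, 0.898 in OAD, 0.381 in YTD and 0.228 in OTD. Stc1, whose product inhibits the related protease Pappa, stood at 3.34 FPKM in YAD, 2.24 in OAD, 1.12 in OTD and 0.765 in YTD. Both were past the threshold in the young and not in the old on the log2(FPKM + 1) scale (1.38 and 1.3), with differences of 0.63 and 0.61 in the old. These genes are low enough for the added 1 to matter, since the ratio of OAD to OTD was 3.94 for Pappa2 (counting interval 2.44 to 6.65) and 2.0 for Stc1 (1.04 to 4.04), and the difference between the ages was not tested.

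A list of 13 other genes whose proteins carry an IGFBP domain, of which 8 passed the filter, had 2 past the threshold in telogen by age and 0 in anagen, beside 4.19% and 1.22% of all filtered genes. Those 2 were Ccn1, at 82.9 FPKM in OTD and 20.7 in YTD (4.01-fold apart), and Ccn2, at 28.4 and 10.2 FPKM (2.78-fold apart), both matricellular genes known as targets of YAP. By phase, 0 were higher and 4 lower at each age, beside 20.2% of genes higher and 21.5% lower in the young and 20.5% and 19.9% in the old, with medians over the 13 of -0.30 in the young and -0.57 in the old (-0.01 and -0.23 under TPM). Ccn5 had the widest phase difference, at 19.5 FPKM in OTD and 9.61 in YTD, against 1.21 in OAD and 1.73 in YAD (-1.96 in the young and -3.21 in the old). Ccn1 (-1.21 and -2.39) and Ccn3 (-1.10 and -1.75) were lower past the threshold at both ages, Htra3, a secreted protease gene, in the young (-1.17, against -0.83 in the old), and Kazald1 in the old (-1.24, against -0.66 in the young). Under TPM, Ccn1 (-0.43), Ccn3 (-0.59) and Htra3 (-0.37) in the young and Kazald1 (-0.76) in the old no longer reached 1, while Ccn5 did at both ages (-1.32 and -2.74).

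For the 7 members whose log2 level spanned at least 1 over the 4 libraries, the genes with the nearest pattern were found by the Euclidean distance of centred log2(FPKM + 1) over the 4 libraries, among 12732 genes with a symbol. Igf1 was nearest to Apobec3 (distance 0.0221), Kank3 (0.0300) and Fli1 (0.0419). Igf2 was nearest to Mpc1 (0.0502), which encodes a mitochondrial pyruvate carrier, then Vdac3 (0.0575) and Anxa6 (0.0668). Igfbp2 was nearest to Mcm6 (0.0629), a subunit of the replicative helicase, then Cfl1 (0.0650) and Ldb1 (0.0697). Igfbp3 was nearest to Tinagl1 (0.0847), Csf1r (0.0882), which encodes the macrophage colony-stimulating factor receptor, and Cnrip1 (0.0933). Igfbp4 was nearest to Stambpl1 (0.0357), S100b (0.0569) and Man2b2 (0.0573), Igfbp5 to Trim35 (0.109), F830016B08Rik (0.138) and Oxnad1 (0.142), and Igfbp6 to Abcg2 (0.0214), Lcp1 (0.114) and Myct1 (0.118). With 4 libraries many genes lie close by: 53 to 96 genes lay within a distance of 0.2 of Igf1, Igf2, Igfbp2, Igfbp3 or Igfbp4, but 15 of Igfbp6 and 7 of Igfbp5.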

How the data were processed

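The deposited unit was FPKM per gene, 1 table per library. Per the labels and methods, the authors extracted total RNA, made Illumina libraries and aligned reads to GRCm38 with TopHat2 after bcl2fastq, and the FPKM tool, its annotation and its strand setting were not given in the sources used here. The table also lists a length, which equalled the GENCODE M21 coding length for 9 of 9 members and is not the divisor of the FPKM, so fragment numbers are lower limits. Genes were matched to symbols by Ensembl ID, 21750 of 22913.

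Groups came from titles. Differences of log2(FPKM + 1) were computed in Python 3.11.15 with numpy 2.4.6, pandas 2.3.3 and scipy 1.17.1, over genes with a mean FPKM of at least 1. Depth came from the commonest low value of FPKM times transcript length, taken as 1 fragment, among genes with 1 transcript of 2500 to 20000 bases. Ratio intervals (95%) came from the exact binomial interval of the fragments, for counting error only. The script recovered large changes put into simulated data, in genes with a mean FPKM of at least 5 and with counting error only. Smaller changes, changes in lower genes and shifts in library makeup were not simulated.

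The members and all lists were chosen with earlier results of these data known. Values were named for all 9 members, for at most 8 genes per pathway list past the threshold in any comparison, and for the 3 nearest genes of each member spanning at least 1, and Insr, Igf2r, Igfbp1 and Igfals were named beside them as the other receptors and carriers of IGFs, after their values were seen. Alternatives were pseudocounts of 0.1 and 0.01, 5 scalings (TPM as a whole and without mitochondrially encoded, muscle, or keratin and melanocyte genes, and the median of ratios), a threshold of 1.5, and filters of none and a mean FPKM of at least 5. Muscle genes were a list of 38. Protein sequences were not used here, and Krt85 and H19 were not analysed here.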

Additional observations from a re-analysis of the deposited data

Results flagged for a closer look

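The values below lie on opposite sides of 0 in 2 settings of the same comparison, each beyond counting error, with 1 library per group, and none of the differences between settings was tested. Igfbp6 was higher with age in telogen (0.54 on the log2 scale) and lower with age in anagen (-0.30), and kept both signs under the 5 scalings. Irs2 was higher in anagen than in telogen in young mice (0.26) and lower in old mice (-0.85), and kept both signs under the 5 scalings. Akt2 was lower with age in telogen (-0.73) and higher with age in anagen (0.20), which turned to -0.03 under TPM. Ccn2 was higher in anagen in young mice (0.46) and lower in old mice (-0.49), which turned to 0.10 under TPM.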

How the results depend on the processing

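With 1 library in each group, no library could be left out and no spread between animals is known. No paired analysis was possible because each group has 1 sample and no result comes from a test. The count of members past the threshold stayed within 1.5 times the value reported in each comparison under all 10 alternatives. Under TPM, however, the phase comparison in the young had 2 higher and 2 lower in place of 1 and 5. Beside them, 42.0% of genes were higher and 9.41% lower. The share of Igfbp7 within the binding protein genes was 60.6% in OTD and 58.1% in YTD, against 73.1% in OAD and 70.5% in YAD by fragments with the listed length. By FPKM times the longest annotated transcript, a choice added after seeing the data, it was 31.0%, 25.7%, 42.8% and 40.0%, still higher in both anagen libraries. These settings weight longer genes more by construction. Of the values of single genes, 135 moved beyond counting error and 370 did not. A mean FPKM of at least 5 left 7 members. The 9 fragments of Igfbp2 in YTD are the least behind any member value.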
